A study of Mus musculus with 3 samples.

Results

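The genes of pyruvate entry into mitochondria, the citric acid cycle and glutamate handling were examined in satellite cells, which lie along muscle fibres and rebuild them after injury. The set holds 33 genes named by their enzymatic roles, all 33 of which have a row among the 20308 gene symbols of the deposited table. Cells were sorted as ZsGreen-positive (about 200000 per sample) from the digested hindlimb muscle of Pax7-ZsGreen mice aged 3 months, in which a green fluorescent reporter is tied to Pax7, a transcription factor of the satellite cell lineage. Muscle of several animals was combined, and the 3 libraries (replicates 1, 2 and 3) form 1 group with no second genotype, treatment or age. The labels name the tibialis anterior as tissue, while the series text names hindlimb muscles.

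Pyruvate made by glycolysis enters mitochondria and is either decarboxylated to acetyl-CoA by the pyruvate dehydrogenase complex or carboxylated to oxaloacetate. The citric acid cycle oxidises the acetyl group and yields reduced cofactors for the respiratory chain, while citrate, alpha-ketoglutarate and oxaloacetate can leave it for lipid, glutamate and aspartate synthesis. Kinases switch the pyruvate dehydrogenase complex off and phosphatases switch it on again. In muscle stem cells the use of glucose, fatty acids and glutamine is known to change between quiescence and activation.

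Levels are those of transcripts, also where an enzyme is named, as protein was not measured. They are in TPM, a unit that weighs reads by transcript length and by the total over the genes in the table. TPM can therefore be set side by side between genes and between libraries, but with limits. Each value is a share of its library, so it also depends on the other genes there. Between genes it depends on how reads of shared sequence were assigned. Over genes averaging at least 1 TPM, the Pearson correlation of log2(TPM + 0.1) between libraries was 0.701 to 0.715. The values carry no read totals, so the depth behind them is unknown, and no label ties each library to its own pool of animals. The p-values therefore cover the spread among these 3 samples, which may be technical. In the level tests each gene's variance was also drawn from genes of similar level, and more so when a replicate was left out. RNA of the whole sorted population was measured, so fewer cells of a type and less RNA per cell cannot be told apart. The 9 satellite cell markers were all above 1 TPM, with summed levels of 3523 to 3728 TPM per library. Most of that sum came from Myod1 and Des (means 1240 and 1164 TPM), while Pax7 averaged 51.4 TPM. Markers of other cells were not low throughout. Fibro-adipogenic markers summed to 1348, 1331 and 1298 TPM in replicates 1, 2 and 3, mostly from Col3a1 and Dpt, with Pdgfra and Lum undecided against 1 TPM. Endothelial markers summed to 1856, 1497 and 2772 TPM, mostly from Fabp4. Over all genes tested, 60.8% were called above 1 TPM. For markers of other cells the counts above 1 TPM were 4 of 9 fibre, 4 of 6 fibro-adipogenic, 6 of 6 endothelial, 3 of 6 leukocyte, 2 of 4 erythroid, 3 of 5 pericyte and smooth muscle, 3 of 4 Schwann cell and 0 of 5 adipocyte genes.

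The set was led by 1 gene, Glul, and the other genes above 0 had means from 4.32 to 235 TPM. Together the 33 genes held 0.367% ± 0.0053 of all TPM (SD, n = 3), and Glul alone held 49.5% ± 2.76 of that sum. By mean level, 10 genes lay at or above 100 TPM, 14 between 10 and 100 TPM and 9 below 10 TPM. The median over the set was 44.5 TPM, against 11.5 TPM over the 12822 genes above 0 in at least 1 library. Of the 32 genes of the set that could be tested, 30 were above 1 TPM, 0 below it and 2 undecided (Idh1 and Got1), in a limma fit across all genes (Benjamini-Hochberg adjusted). The background called below 1 TPM was 2.18%. The background called above 1 TPM was 60.8%. Above 10 TPM the set had 21 genes, with a background of 38.2%, and below it 0, with a background of 17.5%. Above 100 TPM it had 4 (background 9.54%) and below it 21 (background 85.1%). The 4 above 100 TPM were Glul, Dld, Pdhb and Idh2. Pdk2 was listed at 0 in all 3 libraries and was not tested. A listed 0 can be a failed estimate in these data.

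**Figure D1:**
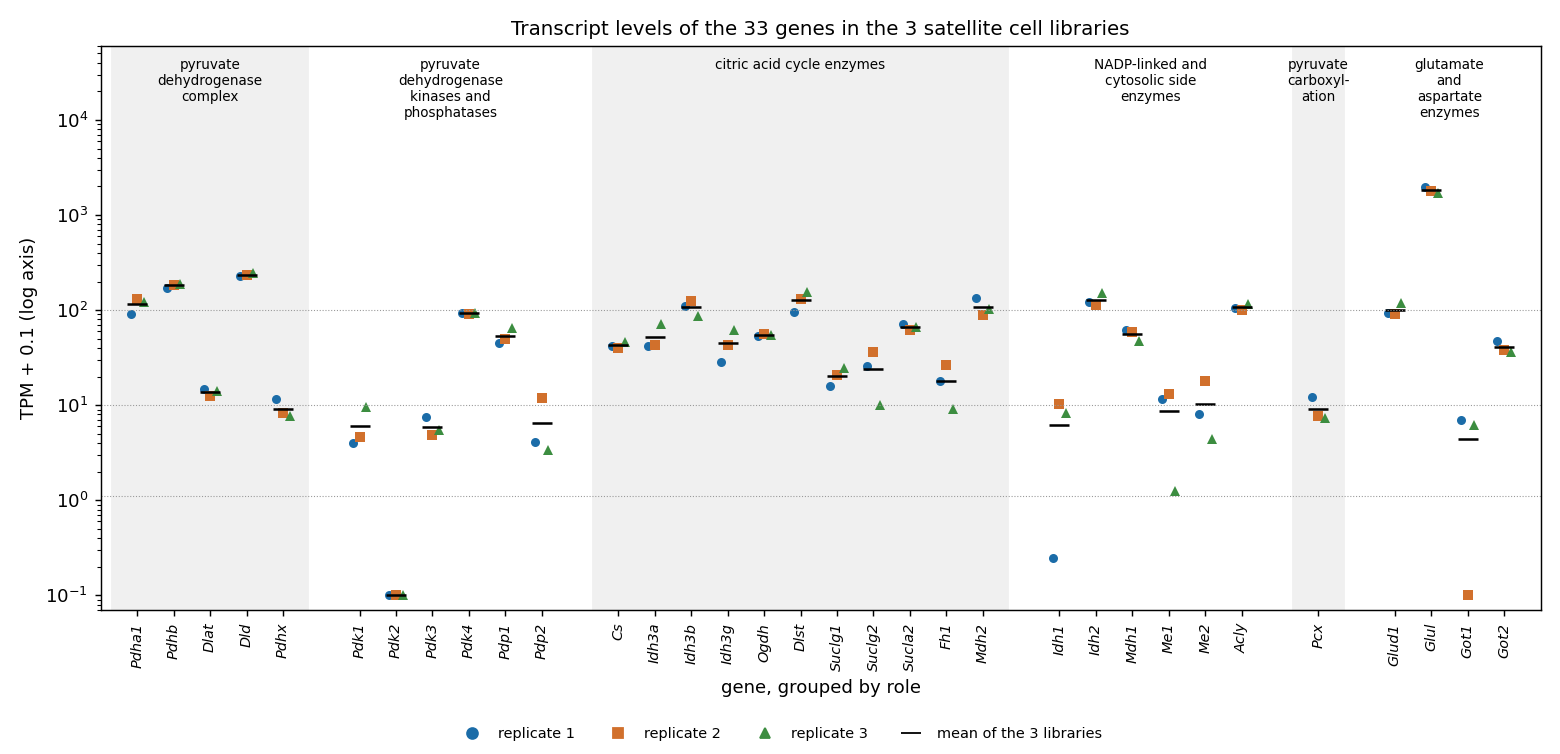
Level of each of the 33 genes (TPM + 0.1, log axis) in replicates 1, 2 and 3, grouped by role, with the mean of the 3 libraries as a bar and dotted lines at 1, 10 and 100 TPM. Glul stands above all others at 1723 to 1960 TPM, Pdk2 is at 0 in each library, and the points of Idh1, Got1 and Me1 are the most widely separated.

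For the pyruvate dehydrogenase complex, transcript levels were high for its first and last enzymes and low for its core. Its first enzyme, which decarboxylates pyruvate, is built from the subunits encoded by Pdha1 and Pdhb. Pdha1 (chromosome X, 160122209 to 160138413, GRCm38) was at 90.2, 132 and 121 TPM in replicates 1, 2 and 3. Pdhb (chromosome 14, 8165996 to 8173025) was at 170, 186 and 189 TPM, without overlap with Pdha1. Within each library Pdhb exceeded Pdha1, by 0.68 ± 0.217 on the log2(TPM + 0.1) scale (1.60-fold, n = 3, exact sign-flip permutation p = 0.25, two-sided). With 3 libraries 0.25 is the smallest p this test can give, so for every pair it can only show whether the libraries share a direction.

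Dld (chromosome 12, 31331277 to 31351453) encodes the dehydrogenase that reoxidises the lipoyl arm, a component shared with other ketoacid dehydrogenases. It was the second highest gene of the set, at 227, 233 and 243 TPM. The lipoyl acetyltransferase that forms the core is encoded by Dlat (chromosome 9, 50634633 to 50659780), which was at 14.7, 12.3 and 13.95 TPM. Pdhx, which anchors the Dld protein to that core, was at 11.5, 8.16 and 7.57 TPM. The 5 genes thus fell into a high group of 3 and a low group of 2 with no overlap in any library. Dlat exceeded Pdhx in 3 of 3 libraries, by 0.60 ± 0.26 on the log2 scale (1.52-fold, exact sign-flip p = 0.25). Among ratios chosen after the values were seen, Pdhb was 11.6 to 15.1 times Dlat and Dld was 15.5 to 18.9 times Dlat across the libraries. Dlat was above 1 TPM (limma adjusted p = 1.19e-05) but undecided against 10 TPM (limma adjusted p = 0.322). Neither Dlat nor Dld shares any 31-base word of its longest transcript with another annotated gene, while Pdhb shares 7.24%.

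One kinase gene carried most of the kinase transcripts. The kinases encoded by Pdk1 to Pdk4 phosphorylate the alpha subunit of the first enzyme and inactivate the complex, and Pdk4 is known in muscle as the form induced by fasting and fatty acids. Pdk4 (chromosome 6, 5483351 to 5496309) was at 93.2, 90.04 and 93.7 TPM, a nearly constant level. Pdk1 was at 3.95, 4.5 and 9.39 TPM and Pdk3 at 7.43, 4.75 and 5.39 TPM, overlapping each other and far below Pdk4. Pdk2 (chromosome 11, 95026258 to 95041354), which shares no 31-base word with another annotated gene, was listed at 0 in each library. Of the summed TPM of the 4 kinases, Pdk4 held 89.1%, 90.7% and 86.4% in replicates 1, 2 and 3, with Pdk2 entered at its listed 0, which may be a failed estimate.

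Pdk4 exceeded Pdk1 by 9.97 to 23.6 times and Pdk3 by 12.5 to 18.96 times within libraries (exact sign-flip p = 0.25 each, 3 of 3 libraries). Pdk1 and Pdk3 had no shared order, with a mean log2 difference of -0.06 ± 0.842 (higher in Pdk1 in 1 of 3 libraries, exact sign-flip p = 0.75). Pdk1 was above 1 TPM with all libraries (limma adjusted p = 0.0174) and not without replicate 3 (limma adjusted p = 0.114).

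Because Pdk4 had the highest and Pdk2 the lowest listed value of their family, the 250 bases before the RefSeq start sites (GRCm38.p6) of Pdk4 and Pdk2 are shown with those of Glul, the highest gene. Capitals mark CCAAT on either strand (ATTGG on the other) and GGGCGG, the CCAAT box and GC box. Pdk4 lies at chr6:5496279-5496528 (minus strand), Pdk2 at chr11:95041372-95041621 (minus strand, the upstream one of its start sites) and Glul at chr1:153899679-153899928 (plus strand).
Pdk4: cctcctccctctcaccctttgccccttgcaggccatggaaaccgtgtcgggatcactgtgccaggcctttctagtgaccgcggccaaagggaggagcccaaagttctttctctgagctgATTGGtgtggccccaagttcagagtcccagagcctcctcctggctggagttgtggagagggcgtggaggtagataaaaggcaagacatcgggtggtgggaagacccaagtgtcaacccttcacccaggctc
Pdk2: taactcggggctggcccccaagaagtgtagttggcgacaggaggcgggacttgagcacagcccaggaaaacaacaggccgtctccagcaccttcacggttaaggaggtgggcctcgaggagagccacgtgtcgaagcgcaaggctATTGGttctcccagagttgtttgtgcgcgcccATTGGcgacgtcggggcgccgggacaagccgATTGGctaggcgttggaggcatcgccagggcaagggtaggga
Glul: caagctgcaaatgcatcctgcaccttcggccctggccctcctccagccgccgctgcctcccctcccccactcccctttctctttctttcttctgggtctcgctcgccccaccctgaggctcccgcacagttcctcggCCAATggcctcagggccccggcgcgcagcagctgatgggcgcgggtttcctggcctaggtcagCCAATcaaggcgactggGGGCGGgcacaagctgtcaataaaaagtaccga
The Pdk4 stretch held 1 CCAAT box and no GC box, the Pdk2 stretch 3 CCAAT boxes and no GC box, and the Glul stretch 2 CCAAT boxes and 1 GC box. These matches are descriptions of letters, not of binding.

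Over windows from 250 bases before to 50 after each RefSeq start, 30 of the 33 genes had a promoter in the table, in 40 windows. CCAAT on either strand occurred in 20 of those 30 genes (66.7%), against 41.1% of all 27025 genes with such windows and 42.0% of the 5188 among them with a mean of at least 10 TPM. GGGCGG occurred in 21 of 30 (70%), against 38.2% of all genes and 73.7% of those with a mean of at least 10 TPM. CCGGAAGT, an ETS motif, occurred in 1 gene (Dlst) and TATAAA in 1 (Got2), against 10.004% and 8.83% of genes averaging 10 TPM or more. GCGCATGC, a core of the NRF1 motif, occurred in 2 genes (Glud1 and Ogdh), against 6.53% of genes at that level. TCAAGGTCA, an estrogen-related receptor motif, occurred in 0 of 30, against 0.27%. Median GC content was 61.2% for the windows of the set and 62% for those of genes averaging 10 TPM or more. Genes with several start sites, such as Ogdh, had more windows in which a match could occur.

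The phosphatases that reverse the kinases were also unequal. Pdp1, the calcium-stimulated form, was at 44.9, 49.1 and 64.3 TPM, and Pdp2, the insulin-responsive form, at 4.02, 11.9 and 3.26 TPM. Pdp1 exceeded Pdp2 in 3 of 3 libraries, by 4.13 to 19.7 times (exact sign-flip p = 0.25). Pdp2 was above 1 TPM with all libraries (limma adjusted p = 0.0235) and not without replicate 2 (limma adjusted p = 0.269) or with a pseudocount of 1 (limma adjusted p = 0.0511). In a ratio chosen after the values were seen, Pdk4 was 1.46 to 2.08 times Pdp1.

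Pyruvate carboxylase, which makes oxaloacetate from pyruvate, was encoded at a much lower level than the first enzyme of the dehydrogenase complex. Pcx (chromosome 19, 4510472 to 4621752) was at 12.04, 7.68 and 7.19 TPM and above 1 TPM (limma adjusted p = 0.000584). Pdha1 exceeded Pcx 7.49-fold to 17.2-fold within libraries, in 3 of 3 (exact sign-flip p = 0.25). The low genes of the complex were much nearer to Pcx, with Pdhx at 11.5, 8.16 and 7.57 TPM and Dlat at 14.7, 12.3 and 13.95 TPM.

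All 11 genes of the citric acid cycle in the set were above 1 TPM, and 10 of 11 above 10 TPM (backgrounds 60.8% and 38.2%), with a median of 51.96 TPM. Their summed level was 636, 671 and 687 TPM in replicates 1, 2 and 3. Cs, citrate synthase, which admits acetyl-CoA to the cycle, was at 41.9, 40.3 and 45.9 TPM. The NAD-linked isocitrate dehydrogenase is built from a catalytic subunit, Idh3a, and the subunits Idh3b and Idh3g. Idh3a was at 42.1, 42.9 and 70.9 TPM, Idh3b at 110, 125 and 87.3 TPM and Idh3g at 28.7, 43.4 and 61.3 TPM. Idh3b stood above both partners in each library, by 1.23 to 2.91 times over Idh3a and 1.42 to 3.84 times over Idh3g (exact sign-flip p = 0.25 each). Idh3a and Idh3g had no shared order (log2 difference 0.25 ± 0.285, exact sign-flip p = 0.5).

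The alpha-ketoglutarate dehydrogenase complex, which also uses the Dld protein, had a core transcript level unlike that of the pyruvate complex. Ogdh, its decarboxylase, was at 53.2, 55.4 and 54.4 TPM, among the most even values of the set. Dlst (chromosome 12, 85110833 to 85134845), its lipoyl succinyltransferase core, was at 96.5, 132 and 154 TPM. Dlst exceeded Ogdh 1.82-fold to 2.83-fold in 3 of 3 libraries (exact sign-flip p = 0.25). In a ratio chosen after the values were seen, Dlst was 6.58 to 11.02 times Dlat. Dlst was undecided against 100 TPM (limma adjusted p = 0.0584) and above it without replicate 1 (limma adjusted p = 0.00295) or with a pseudocount of 0.01 (0.0469). Without replicate 1 so was Pdha1 (limma adjusted p = 0.25 with all libraries and 0.0422 without replicate 1).

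Succinyl-CoA ligase pairs the alpha subunit Suclg1 with either an ADP-forming beta subunit, Sucla2, or a GDP-forming one, Suclg2. Sucla2 was at 70.9, 61.5 and 67.0 TPM, Suclg2 at 25.9, 36.4 and 10 TPM and Suclg1 at 15.8, 20.4 and 24.3 TPM. Sucla2 exceeded Suclg2 by 1.69 to 6.70 times and the shared subunit Suclg1 by 2.76 to 4.48 times, in 3 of 3 libraries each (exact sign-flip p = 0.25). Suclg1 and Suclg2 had another order in replicate 3 than in the other libraries (log2 difference -0.09 ± 1.18, exact sign-flip p = 1). Suclg2 shares 27.96% of its 31-base words with other annotated genes, mostly the pseudogene Gm15163, and its level could shift with the assignment of those reads. Suclg2 was above 10 TPM with all libraries (limma adjusted p = 0.0378) but not without replicate 1 (0.0888) or 2 (0.263), without a variance trend (0.15), without a filter (0.105) or with a pseudocount of 1 (0.0625). Suclg1 (limma adjusted p = 0.0193) was not without replicate 2 (0.0792) or 3 (0.136).

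The last steps of the cycle were covered by fumarase and malate dehydrogenase. Fh1, fumarase, was at 18, 26.1 and 9.11 TPM, and was the cycle gene undecided against 10 TPM (limma adjusted p = 0.155, and 0.0134 without replicate 3). Mdh2, the mitochondrial malate dehydrogenase, was at 133, 87.95 and 103 TPM. Its cytosolic partner in the malate-aspartate shuttle, Mdh1, was at 61.6, 58.5 and 47.6 TPM, lower in 3 of 3 libraries by 1.505 to 2.17 times (exact sign-flip p = 0.25).

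For the NADP-linked enzymes, the mitochondrial isocitrate form was high and the cytosolic form low. Idh2 (chromosome 7, 80094846 to 80115392), in mitochondria, was at 121, 112 and 151 TPM, and Idh1 (chromosome 1, 65158616 to 65186500), in the cytosol and peroxisomes, at 0.15, 10.2 and 8.13 TPM. Idh2 exceeded Idh1 in 3 of 3 libraries, by 10.98 times in replicate 2 and by 808 times in replicate 1, where Idh1 was at 0.15 TPM (exact sign-flip p = 0.25). Idh1 was undecided against 1 TPM (limma adjusted p = 0.428) and above it without replicate 1 (limma adjusted p = 9.09e-05). Idh2 was above 100 TPM with all libraries (limma adjusted p = 0.0272) and not without replicate 3 (limma adjusted p = 0.207) or without a variance trend (0.217). Idh2 also exceeded Idh3a, 2.12-fold to 2.88-fold.

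Malic enzymes, which turn malate into pyruvate, were low and variable. Me1, the cytosolic form, was at 11.4, 13.0 and 1.16 TPM, and Me2, a mitochondrial form, at 7.93, 18.03 and 4.29 TPM. Their order differed between libraries (log2 difference -0.58 ± 1.16, higher in Me1 in 1 of 3, exact sign-flip p = 0.75). Both were lowest in replicate 3. Me1 was above 1 TPM with all libraries (limma adjusted p = 0.0365), but not without replicate 1 (0.179) or 2 (0.251), and not without a variance trend (0.103), without a filter (0.0966) or with a pseudocount of 1 (0.0665). Me1 shares 34.2% of its 31-base words with other annotated genes, mostly the pseudogene Gm7049.

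Acly, which splits exported citrate to cytosolic acetyl-CoA for lipids and histone acetylation, was at 105, 99.3 and 117 TPM. Acly (chromosome 11, 100476353 to 100528000) exceeded Cs by 2.46 to 2.54 times, the narrowest range of any of the 24 pairs without a 0 (log2 difference 1.32 ± 0.023, 3 of 3 libraries, exact sign-flip p = 0.25).

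**Figure D2:**
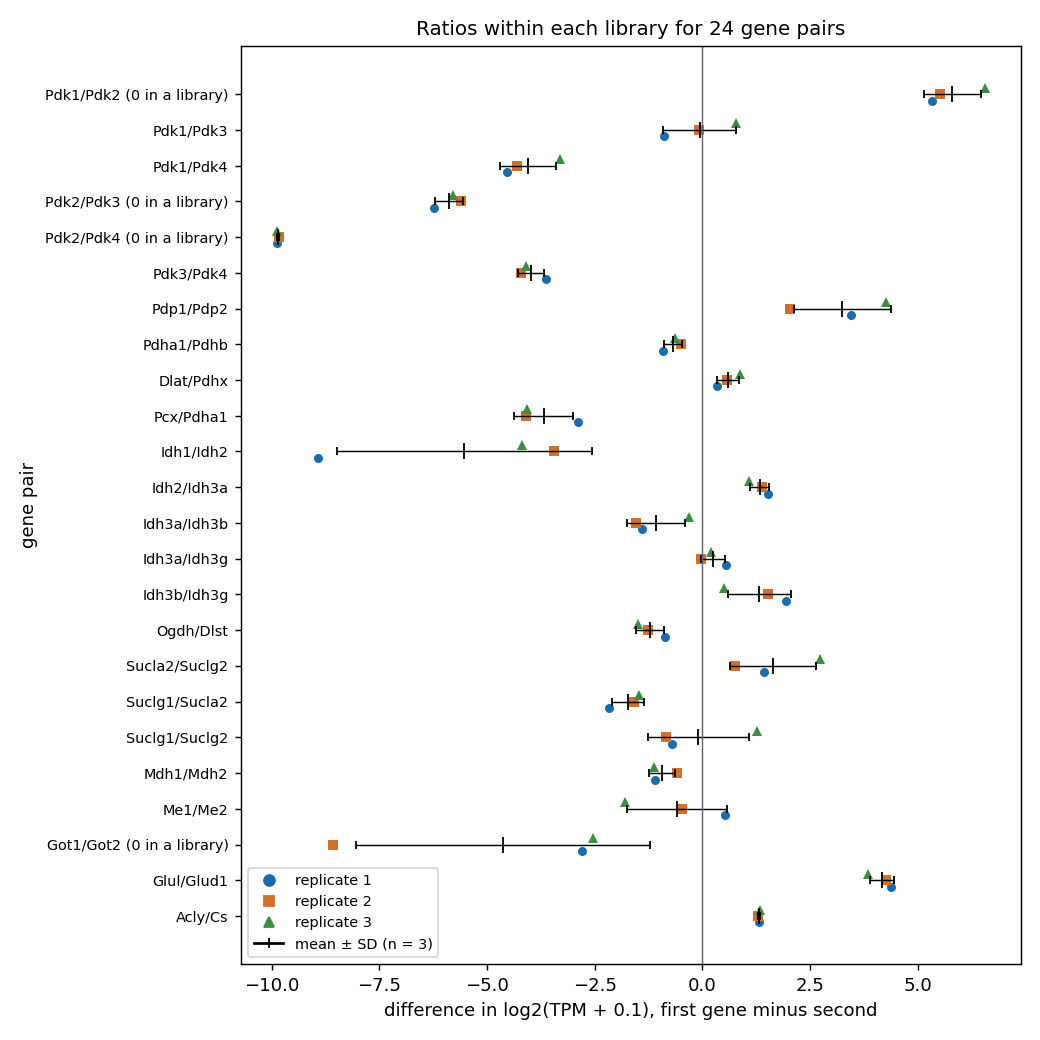
Difference in log2(TPM + 0.1) between the genes of 24 pairs (first minus second) in each library, with mean and SD (n = 3). For 20 pairs the 3 points share a side of 0, and for Pdk1/Pdk3, Idh3a/Idh3g, Suclg1/Suclg2 and Me1/Me2 they do not; positions of pairs with a gene at 0 depend on the pseudocount.

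Glutamine synthetase, Glul, stood far above the other glutamate genes. Glul (chromosome 1, 153899944 to 153909723, plus strand), which joins ammonia to glutamate to make glutamine, was at 1960, 1775 and 1723 TPM and ranked 92 of the 20308 symbols by mean. Glud1, glutamate dehydrogenase, which links glutamate to alpha-ketoglutarate in mitochondria, was at 93.4, 91.4 and 119 TPM. Glul exceeded Glud1 by 14.4 to 21.0 times, in 3 of 3 libraries (log2 difference 4.17 ± 0.284, exact sign-flip p = 0.25). In a ratio chosen after the values were seen, it was 7.08 to 8.62 times Dld, the next gene of the set. It shares 23.4% of its 31-base words with other annotated genes, mainly the pseudogene Glns-ps1, and Glud1 shares 13.0%. Which annotation the authors counted against is not given in the sources used here, so the handling of such reads is unknown.

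The aspartate aminotransferases, which exchange amino groups between glutamate and oxaloacetate, differed by compartment. Got2, the mitochondrial form, was at 47.6, 37.8 and 36.3 TPM, and Got1, the cytosolic form, at 6.81, 0 and 6.16 TPM. Got2 was the higher in 3 of 3 libraries (exact sign-flip p = 0.25), and no fold is given because Got1 was listed at 0 in replicate 2. Got1 was undecided against 1 TPM (limma adjusted p = 0.785) and above it without replicate 2 (limma adjusted p = 0.0104). Got2 shares 38.9% of its 31-base words with the pseudogene Got2-ps1, and Got1 shares none. For malate dehydrogenase, NADP-linked isocitrate dehydrogenase and aspartate aminotransferase alike, the mitochondrial form was higher than the cytosolic form in each library. The malic enzymes did not share that order, as cytosolic Me1 was above mitochondrial Me2 in replicate 1.

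The spread across the libraries differed widely among these genes. The highest and lowest library differed by less than 1.5-fold for 16 genes and by 1.5-fold or more for 15, with Pdk2 and Got1 left out because they were listed at 0 in 3 libraries and in 1. For the 24 genes averaging 10 TPM or more, the median SD of log2(TPM + 0.1) was 0.22, against 0.35 for the 6765 genes of the table at that level. Spread falls as level rises, so each gene was also placed among the 500 genes nearest to it in level. On that scale 18 of 32 genes lay below the middle, with a median percentile of 37.6. A count this near the middle is not a result about the set. The most even were Pdk4 (percentile 0.4, SD 0.031), Ogdh (percentile 1, SD 0.03), Dlat (percentile 4.4) and Cs (percentile 4.8). The least even were Me1 (percentile 91.6, SD 1.90) and Suclg2 (percentile 89.4, SD 0.96). These percentiles describe the 3 libraries and were not tested.

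Of the same 24 genes, 12 (50%) had their highest value in replicate 3, as did 30.0% of all genes averaging 10 TPM or more. The median deviation of the 24 genes in replicate 3 from their own mean was small, at 0.04 on the log2 scale. The summed level of fibre markers was also highest in replicate 3, at 77.1, 79.4 and 208 TPM in replicates 1, 2 and 3 over 9 genes, of which Myh2 was at 0 throughout. Its rise came mainly from Tnnc2 (7, 16.3 and 77.2 TPM) and Pvalb (1.45, 0.39 and 31.5 TPM). Of the 9, 6 were highest in replicate 3, while Acta1 was highest in replicate 1 and Tnnt3 (22.2, 23.7 and 8.07 TPM) was lowest in replicate 3. Endothelial markers summed to 1856, 1497 and 2772 TPM over 6 genes, mostly from Fabp4, and to 106, 141 and 184 TPM without it. Of the 6, Pecam1, Cldn5 and Fabp4 were highest in replicate 3 and Cdh5 and Tie1 lowest there. The part of these cells in the levels was not tested. Adipocytes also express Acly and Pcx. Of 5 adipocyte markers Plin1, Cidec and Lep were listed at 0 in all 3 libraries. The other markers were Car3, at 13.9, 0 and 7.04 TPM, and Adipoq, at 4.8, 0 and 0 TPM. The 5 summed to 18.7, 0 and 7.04 TPM, with Fabp4 counted among the endothelial markers only. The part of adipocytes was not tested either.

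**Figure D3:**
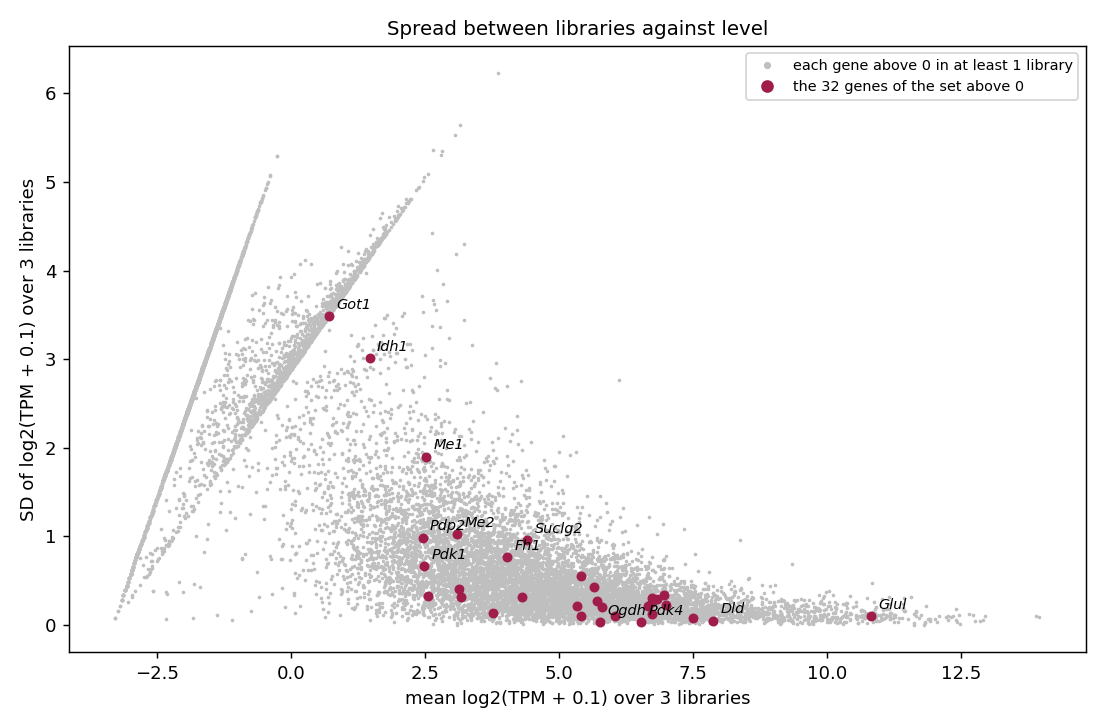
SD of log2(TPM + 0.1) over the 3 libraries against its mean for each gene above 0 (grey) and for the 32 genes of the set above 0 (red). Pdk4 and Ogdh lie at the lower edge for their level, Me1, Idh1 and Got1 lie high, and the straight grey bands are genes listed at 0 in 1 or 2 libraries.

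Other genes of the same pathways had a lower median than the 33, a difference that was not tested. Of 63 such genes, 36 were above 1 TPM, 1 below, 23 undecided and 3 listed at 0, with a median of 7.70 TPM. The background was 60.8% above 1 TPM and 2.18% below it, and the counts by list were not tested against it. All 6 remaining genes of the cycle were above 1 TPM, led by Sdha, the flavoprotein of succinate dehydrogenase, at 67.0, 75.5 and 73.9 TPM, within the range of the cycle genes above. Upstream of the mitochondria, 5 of 8 pyruvate supply genes were above 1 TPM. Pyruvate kinase, Pkm, was at 617, 593 and 760 TPM and lactate dehydrogenase A, Ldha, at 357, 402 and 362 TPM, each above every gene of the pyruvate dehydrogenase complex.

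Lipoate is the cofactor that Dlat and Dlst carry. Of 8 genes listed for its synthesis and transfer, carriers among them, 3 were above 1 TPM (background 60.8%). Gcsh, a lipoyl carrier of glycine cleavage, was at 28.1, 19.7 and 30.3 TPM. Mecr, at 25.8, 0 and 3.50 TPM, was undecided against 1 TPM (limma adjusted p = 0.65). Of 7 genes of related ketoacid dehydrogenases 3 were above 1 TPM (background 60.8%). The branched-chain core gene Dbt was at 19.0, 61.7 and 26.4 TPM and Bckdhb at 28.3, 32.3 and 8.07 TPM. In a comparison made after the values were seen, Dbt lay above Dlat in each library, at 19.0 against 14.7 TPM in replicate 1.

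Of 13 genes of glutamine, glutamate and proline, 8 were above 1 TPM, a count near the background of 60.8%. Ornithine aminotransferase, Oat, was at 281, 325 and 196 TPM. Gad2, a neuronal glutamate decarboxylase, was listed at 0 in all libraries.

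Among 7 genes of citrate export and acetyl-CoA, 6 were above 1 TPM (background 60.8%). Fatty acid synthase, Fasn, was at 47.3, 56.8 and 49.96 TPM and the ketone-body enzyme Oxct1 at 34.7, 34.2 and 32.5 TPM. Of 8 genes of anaplerosis and cataplerosis, 4 were above 1 TPM and 1 below (backgrounds 60.8% and 2.18%). The propionyl-CoA carboxylase genes Pcca (13.3, 17.1 and 18.2 TPM) and Pccb (37.6, 8.02 and 22.9 TPM) were the highest. Pck1, the cytosolic phosphoenolpyruvate carboxykinase of gluconeogenic tissues, was at 0, 0.1 and 0 TPM and was called below 1 TPM, and Mcee was listed at 0 throughout. The call on Pck1 was lost with a pseudocount of 0.01 (limma adjusted p = 0.0906) and without replicate 1 (0.491) or 3 (0.539), and without replicate 2 the gene was at 0 and not tested.

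The 6 genes of hydroxyglutarate oxidation and mitochondrial deacylation had a median of 2.745 TPM, and 1 was above 1 TPM (background 60.8%). Sirt3, a mitochondrial deacetylase, was at 16.03, 0.27 and 0 TPM and undecided against 1 TPM (limma adjusted p = 0.869). Adhfe1 was listed at 0 in all libraries.

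**Figure D4:**
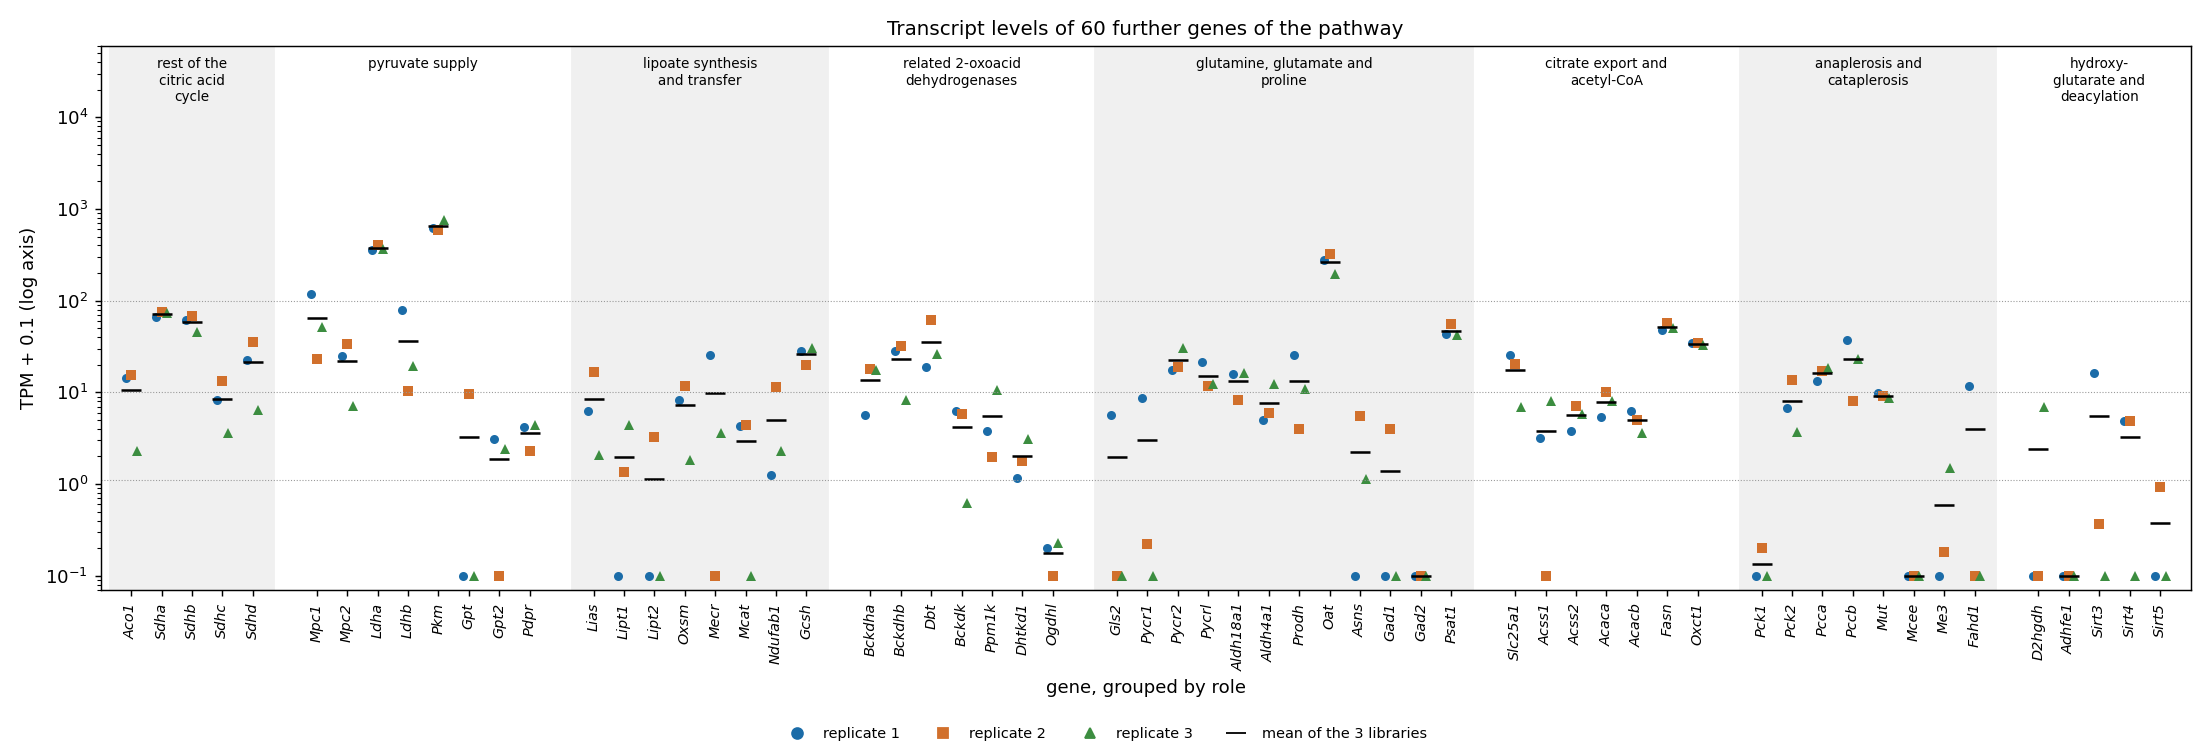
Level of 60 further genes of the pathways (TPM + 0.1, log axis) in each library, grouped by role, with the mean as a bar and dotted lines at 1, 10 and 100 TPM. By mean, Pkm, Ldha and Oat stand above 100 TPM, and many genes below 10 TPM are listed at 0 in 1 or 2 libraries.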

How the data were processed

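RNA was sequenced from 3 libraries of sorted ZsGreen-positive cells, 1 group by their titles. Per the submitters' processing notes, the CASAVA 1.8, Bowtie 0.12.9 and RSEM 1.2.3 were used, with mm10 as build; their roles, settings, strandedness and annotation are not given in any source used here. The authors deposited TPM, 1 column per library, each summing to between 999999.85 and 1000000.30; the table's name says that mitochondrial genes were removed and values renormalised. Of its symbols, 27 had become dates and are not named.

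Levels were tested on log2(TPM + 0.1), which understates folds of low genes, with limma 3.58.1 in R 4.3.3. An intercept was tested two-sided against 1, 10 or 100 TPM with a variance trend over the 12822 genes above 0 in at least 1 library (Benjamini-Hochberg, threshold 0.05). Pairs (24) were compared within libraries by an exact sign-flip permutation test, unadjusted. Alternatives were the pseudocount, the filter, the trend, the scaling and leaving out each replicate. Positions and 31-base words come from GENCODE M21 (GRCm38), promoters from RefSeq (GRCm38.p6). All 33 genes are named, with the 2 highest of each further list and those below 1 TPM or at 0, apart from 3 further genes left unreported. Genes and lists were chosen with earlier results of these data known, and motifs and some ratios after the values were seen.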

Additional observations from a re-analysis of the deposited data

How the results depend on the processing

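The counts of genes above 1, 10 and 100 TPM, the count of pairs with 1 direction and the spread stayed within 1.5 times, or 1 SD, of their values under every alternative that was run. The share of all TPM held by the 33 genes was 0.428% instead of 0.367% when 83 ribosomal protein genes were left out of the total, and 0.279% when the 100 highest genes, Glul among them, were left out of set and total. Single gene levels were tallied for the 1 TPM threshold only, and calls against 10 and 100 TPM, some of which also changed, are outside the tally. Of 288 comparisons of these levels with an alternative, 275 kept direction and call against 1 TPM. In 8 the call above 1 TPM was lost on its adjusted p-value, while the mean log2 level stayed above 1 TPM. Such a call was newly gained in 2, and the direction reversed in 3. The 3 were of Got1, which has a library at 0: its level over 1 TPM was -0.43 on the log2 scale with a pseudocount of 0.01, and ranged from -0.48 to 2.58 when 1 replicate was left out. None of the 20 pairs with 1 direction reversed, and 6 values moved, all involving Pdk2 and the pseudocount that stands in for its 0. Of the 4 pairs without a shared direction, 3 had means that changed sign when 1 replicate was left out: Pdk1/Pdk3 ranged from -0.49 to 0.36, Suclg1/Suclg2 from -0.77 to 0.28 and Me1/Me2 from -1.14 to 0.02 on the log2 scale. Without a filter Pdk2 was called below 1 TPM, a call that rests on the pseudocount. Leaving out a replicate leaves 2 libraries, and limma then drew more of each gene's variance from other genes than with 3. Those p-values hardly measure the spread of a gene's own 2 values and are not comparable with the others. No paired analysis was possible because the labels give replicate numbers within 1 group only. Depth is unknown, so no counting interval was given.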

Other observations

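Some genes of pyruvate supply varied widely between libraries while others of the same list did not. The genes were picked once their values were known. The mitochondrial pyruvate carrier subunit Mpc1 was at 118, 22.9 and 51.9 TPM in replicates 1, 2 and 3 and its partner Mpc2 at 24.7, 33.9 and 7.09 TPM. Lactate dehydrogenase B, Ldhb, was at 79.5, 10.4 and 19.3 TPM, whereas Ldha varied from 357 to 402 TPM and Pkm from 593 to 760 TPM. The small subunits of succinate dehydrogenase, Sdhc and Sdhd, were at 8.24, 13.2 and 3.55 TPM and at 22.5, 35.3 and 6.28 TPM. Both were lowest in replicate 3 and highest in replicate 2. The same order held for Sdhb (62.0, 68.8 and 45.6 TPM), while Sdha was even. Fh1, Suclg2, Idh3b, Mpc2, Me1, Me2, Pdp2 and Bckdhb also had it. Of all genes averaging 10 TPM or more, 34.7% were highest in replicate 2 and 37.5% lowest in replicate 3. No cause of these differences was tested.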
